A study of Mus musculus with 96 samples.

Results

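Chromosome 3 of the mouse line KPC1199EGFP was described over all 308 bins that the deposited table assigns to it, of 4906 bins in the genome, in 94 single nuclei and 2 bulk libraries. The bins start at position 1 of the build mm9, and the last of them begins at 159019749. Their median width is 495 kb. The first bin reaches from 1 to 3606854 and so spans the centromeric end, where the mouse assembly holds long unsequenced stretches. KPC1199EGFP is a pancreatic cancer cell line on a C57BL/6 background with a green fluorescent reporter, and the labels do not name its driver alleles. Adherent cells were taken at passage 9 without treatment, and nuclei stained with the DNA dye DAPI were sorted by DNA content into windows called gates, whose limits the labels do not give. These gave 35 nuclei (2N+), 12 (4N) and 47 (2N), and the 2N+ and 2N gates also 1 bulk library each. All carry the same line and passage, and no separate cultures are named, so each gate was taken as 1 sample of many nuclei, and no test between gates was run.

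A chromosome at 3 copies is called trisomic here, and one at 4 copies tetrasomic, whatever the copies of the others. The nuclei were not otherwise diploid, since the other chromosomes averaged 2.53 copies in 2N+ nuclei and 2.36 in 2N nuclei. Whole chromosomes are gained or lost when they are missegregated in mitosis, which changes every gene of the chromosome at once, whereas breaks followed by faulty joining change only a part. Mouse chromosomes are telocentric, with the centromere at one end, so there is no short arm that could be gained on its own. Chromosome 3 has 983 protein-coding genes in the GRCm38.p6 gene table. A list of 18 genes known in cancer biology was picked from this chromosome, so their place on it is no finding. They include Nras, a small GTPase of the Ras pathway, Pik3ca, the catalytic subunit of a phosphoinositide 3-kinase, and Sox2, a stem cell transcription factor. Mecom, a zinc-finger regulator of transcription, is also on the list. Ccna2 and Cks1b act in the cell cycle, and Mcl1 protects cells from apoptosis. Fbxw7, a ubiquitin ligase subunit that marks growth-promoting proteins for destruction, and Tet2, a DNA demethylase, are known as tumour suppressors. No gene was measured, and none was placed in a bin, because the gene table is of another build than the bins. For the same reason no sequence of the regions is shown.

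Each deposited value is a ratio relative to the mean level of its library, and neighbouring bins mostly share 1 value, so the table holds segments rather than single-bin measurements. Read depth is unknown. In each nucleus the ratios were multiplied by the factor that brought the autosomal bins closest to whole numbers, and the product is called copies. The copies of chromosome 3 are the median over its bins, and its state is that value rounded. The residual is the root mean square distance of the autosomal bins of a nucleus from whole copies, so a larger residual means a less secure scale. SDs describe the spread of nuclei. Intervals are exact Clopper-Pearson 95% intervals and cover counting error only.

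Chromosome 3 was tetrasomic in most 2N+ nuclei and trisomic in most 2N nuclei. In the 2N+ gate 29 of 35 nuclei had 4 copies, a share of 82.9% (66.4 to 93.4), while 5 had 3 copies and 1 had 5. The 12 nuclei of the 4N gate had 3 copies in 4, 4 copies in 4, 5 copies in 1, 6 copies in 2 and 7 copies in 1. In the 2N gate 5 of 47 nuclei had 4 copies, a share of 10.6% (3.55 to 23.1), and 42 had 3 copies, a share of 89.4% (76.9 to 96.5). A state of 2 copies or fewer was found in 0 of 94 nuclei. By the exact interval this allows a share of up to 10.0% (2N+), 26.5% (4N) and 7.55% (2N). For all 94 nuclei pooled the limit is 3.85%, or 3.19% if 3 counts are taken as the limit. That pool joins the gates and describes none of them alone. Chromosome 3 had the highest median of the 19 autosomes in 32 of 35 nuclei (2N+), 11 of 12 (4N) and 17 of 47 (2N).

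Copies gathered near 3 and 4. At 4 copies the 2N+ nuclei ranged from 3.78 to 4.11 with a median of 3.98, and at 3 copies the 42 nuclei of the 2N gate ranged from 2.94 to 3.19 with a median of 3.02. The SD among tetrasomic 2N+ nuclei was 0.0588 copies, and among trisomic 2N nuclei 0.0460. Within the 2N+ gate no nucleus lay between 3.10 and 3.78 copies, a gap of 0.677. Within the 2N gate no nucleus lay between 3.19 and 3.82, a gap of 0.636. On the ratio of chromosome 3 to chromosome 4, which needs no fitted multiplier, the gap was 0.313 in the 2N+ gate, from 1.62 to 1.93, and 0.186 in the 2N gate, from 1.68 to 1.87. In that ratio the SD was 0.0255 among tetrasomic 2N+ nuclei and 0.0412 among trisomic 2N nuclei. With chromosome 4 at 2 copies, 1 copy is 0.5 in this ratio, so the gap of the 2N gate was narrower here than on the fitted scale.

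Of the states of 3 and 4 copies, the rarer one was held by 5 nuclei in the 2N+ gate and by 5 in the 2N gate. The 5 tetrasomic nuclei of the 2N gate, numbers 8, 13, 16, 29 and 35, had 3.82, 3.95, 3.97, 4.03 and 3.94 copies. The 5 trisomic nuclei of the 2N+ gate, numbers 2, 22, 24, 25 and 32, lay from 3.06 to 3.10 copies by their medians. States were read from these same copies, so their order is fixed by the rounding. Of these, nuclei 22, 24, 25 and 32 had partial changes, described further on. Nucleus 30 of the 2N+ gate had 4.82 copies and a residual of 0.164, the highest of its gate. Its ratio of chromosome 3 to chromosome 4, which uses no multiplier, was 2.31, against a next highest value of 2.03 in the gate. With chromosomes 4, 7, 9, 10 and 13 set at 2 copies, the nucleus had 4.69 copies of chromosome 3. It was thus the highest of its gate, but it lay between 4 and 5 copies, and the ratio does not settle the state of 5.

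The rounding was close for almost all nuclei. The copies lay within 0.2 of a whole number in 34 of 35 nuclei (2N+), 11 of 12 (4N) and 47 of 47 (2N). The exceptions were nucleus 31 of the 2N+ gate at 3.78 copies and nucleus 12 of the 4N gate at 3.22 copies, with residuals of 0.163 and 0.182. The next most distant were nuclei 46, 24 and 8 of the 2N gate, at 3.19, 3.19 and 3.82 copies. The multiplier was fitted to bins that include those of chromosome 3, so closeness to whole numbers is partly built in. With chromosome 3 left out of the fit, 34 of 35 nuclei (2N+), 9 of 12 (4N) and 45 of 47 (2N) lay within 0.2. By that fit the state was the same in 35 of 35 nuclei (2N+), 11 of 12 (4N) and 47 of 47 (2N). The exception was nucleus 2 of the 4N gate, which had 4.83 copies with chromosome 3 in the fit and 3.36 without it.

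Over its whole length the chromosome was higher among 2N+ nuclei. The mean was 3.87 ± 0.362 copies in 2N+ nuclei (SD, n = 35) and 3.13 ± 0.287 copies in 2N nuclei (SD, n = 47). This difference of 0.745 copies was the largest of chromosomes 1 to 19 and X, ahead of X at 0.608 and chromosome 15 at 0.606. Per bin, the median over 2N+ nuclei was at least 0.5 copies above the median over 2N nuclei in 308 of 308 bins of chromosome 3. Of the 4903 bins of chromosomes 1 to X, chromosome 3 included, 21.1% passed that mark and 0 were lower by as much. Bins of a segment share 1 value, so the 308 bins restate the difference of the whole chromosome. The library indices of the gates do not overlap, so index and gate cannot be told apart.

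The ratio of chromosome 3 to chromosome 4 needs no multiplier, and it placed the gates in the same way. It is 1.5 where chromosome 3 has 3 copies to 2 of chromosome 4, and 2 where it has 4. In 2N+ nuclei it ranged from 1.53 to 2.31 with a median of 1.97, and in 2N nuclei from 1.46 to 1.98 with a median of 1.5. The plot of this ratio by gate shows a dense upper band among 2N+ nuclei and a dense lower band among 2N nuclei.

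**Figure D1:**
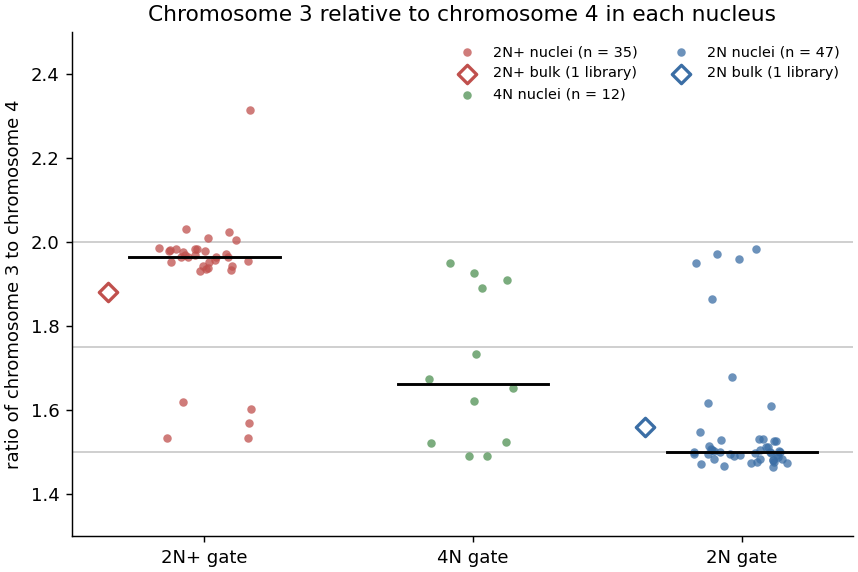
Ratio of chromosome 3 to chromosome 4 (vertical axis) in each nucleus of the 2N+, 4N and 2N gates; points are nuclei, black bars are medians, open diamonds are bulk libraries, and grey lines mark 1.5, 2 and the value midway between them. Most 2N+ nuclei gather near 2 and most 2N nuclei near 1.5, while the 12 nuclei of the 4N gate spread from 1.49 to 1.95.

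In the 4N gate, whose name denotes the DNA content of a doubled genome, the ratio fell into 3 ranges. It lay from 1.89 to 1.95 in 4 nuclei, numbers 7, 8, 9 and 11, and from 1.49 to 1.52 in 4 others, numbers 4, 5, 6 and 10. The remaining 4, numbers 12, 1, 2 and 3, had 1.62, 1.65, 1.67 and 1.73. Values between 1.6 and 1.8, a range chosen after seeing the data, were found in 2 of 35 nuclei (2N+), 4 of 12 (4N) and 3 of 47 (2N). A chromosome with 7 copies against 4 gives a ratio midway between 1.5 and 2, and the ratio alone does not settle the copies.

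Copies among 4N nuclei depended on the scale of each nucleus. Nucleus 3 had 6.98 copies of chromosome 3 at a multiplier of 4.65. Nuclei 4 and 5 had 6.05 and 6.07 copies at multipliers of 4.65 and 4.70, the copies of a trisomic chromosome after the whole genome has doubled. Nucleus 2 had 4.83 copies at a multiplier of 3.45 and a residual of 0.206, the highest of all nuclei. Of the other 8 nuclei, with multipliers of 2.20 to 2.65, 4 had 3 copies and 4 had 4 copies. A doubled genome in which every chromosome has an even number of copies has the same ratios as an undoubled one, so for these 8 the ratios cannot tell the copies given from a doubled set. Nuclei 1 and 12, both called at 3 copies, had residuals of 0.197 and 0.182. Their ratios to chromosome 4 were 1.65 and 1.62, between those of the other nuclei at 3 and at 4 copies, so their state is not secure. With multipliers limited to 2.0 to 3.0, the 4N nuclei at 4 copies or more were 33.3%, against 66.7% without the limit.

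Chromosome 3 stood at 1 level from end to end in 67 of 94 nuclei. One single level covered all 308 bins in 17 of 35 nuclei (2N+), 11 of 12 (4N) and 39 of 47 (2N). Over chromosomes 1 to X, single levels made up 56.3%, 49.6% and 65.9% of chromosomes in these gates. The share for chromosome 3 was 48.6% (31.4 to 66) among 2N+ nuclei, 91.7% (61.5 to 99.8) among 4N nuclei and 83% (69.2 to 92.4) among 2N nuclei. In the 2N+ gate it was thus not above the share over all chromosomes.

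Few 4N and 2N nuclei had a step of 0.5 copies or more inside the chromosome. The 2N+ gate held 24 such steps, and its share of nuclei without one was near the share over all chromosomes. Of 63 changes between neighbouring bins in all nuclei, 35 were of 0.5 copies or more and 28 were smaller. No step of 0.5 copies or more was seen in 27 of 35 nuclei (2N+), 11 of 12 (4N) and 46 of 47 (2N), against 73.4%, 57.1% and 75.9% of chromosomes 1 to X in these gates. Among the 19 autosomes, ordered by the share of nuclei without such a step, chromosome 3 ranked 11 among 2N+ nuclei. In the 4N gate it shared rank 1 with chromosome 9, and among 2N nuclei rank 3 with chromosomes 4 and 7. Chromosomes 2 and 5 were without such a step in 4 and 0 of 94 nuclei.

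**Figure D2:**
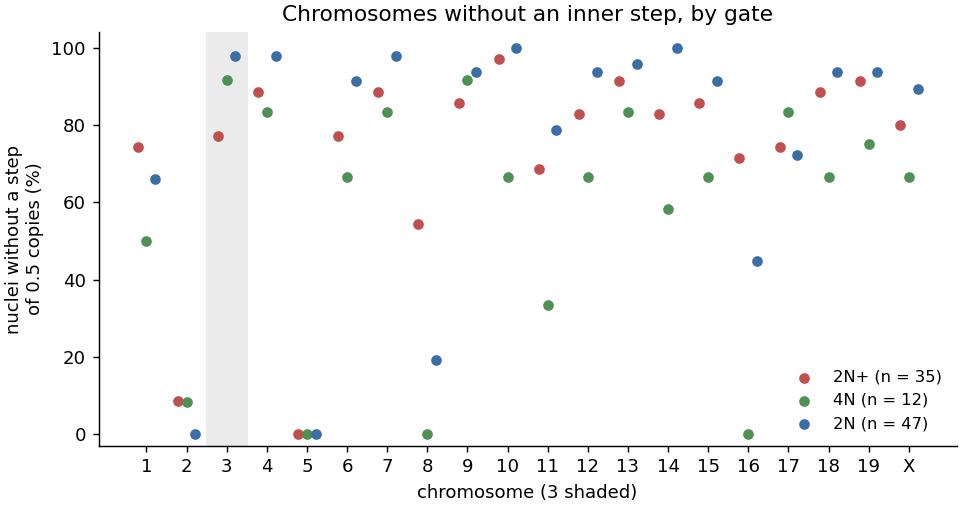
Percent of nuclei without a step of 0.5 copies or more inside the chromosome (vertical axis) for chromosomes 1 to 19 and X (horizontal axis); each gate has 1 point per chromosome, and chromosome 3 is shaded. Chromosome 3 stands at 77.1% among 2N+ nuclei, 91.7% among 4N nuclei and 97.9% among 2N nuclei.

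The medians of the proximal and the distal bins mostly gave the same state, although single levels at the ends could differ. Split after 154 bins, at 82939027, the proximal and the distal bins had medians that rounded to the same number in 34 of 35 nuclei (2N+), 12 of 12 (4N) and 47 of 47 (2N). Both medians were identical in 81 of 94 nuclei. The largest difference between them was 0.975 copies, in nucleus 32 of the 2N+ gate. For 2N nuclei it was at most 0.298 copies.

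Along the chromosome the median over nuclei hardly moved. It ran from 3.94 to 3.98 copies among 2N+ nuclei, from 3.96 to 3.98 among 4N nuclei and from 3.02 to 3.03 among 2N nuclei. The number of 2N+ nuclei at 4 copies or more stayed between 29 and 32 of 35 in each bin. For 4N nuclei it was 7 or 8 of 12, and for 2N nuclei it was 5 of 47 in all 308 bins.

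**Figure D3:**
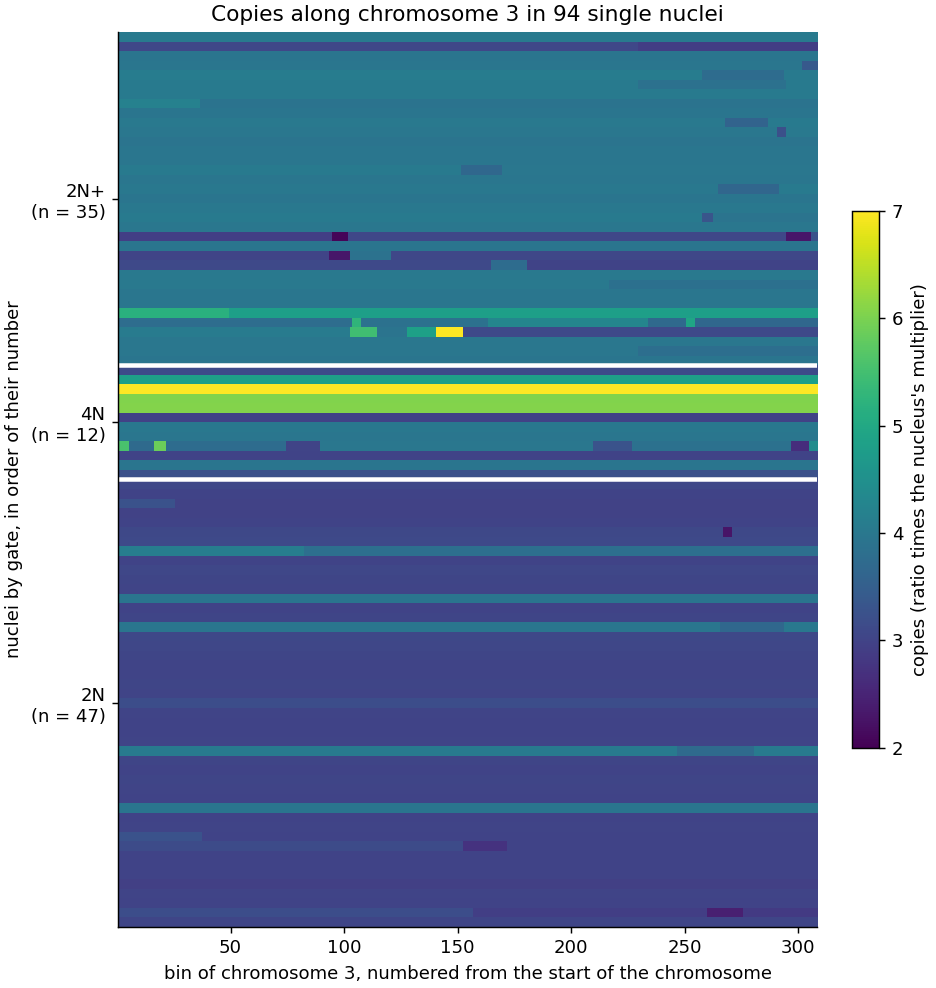
Copies (colour) in each bin of chromosome 3 (horizontal axis, bins numbered from the start of the chromosome) for 94 nuclei (rows, by gate and then by number, 2N+ at the top). Most rows are of 1 colour, near 4 copies among 2N+ nuclei and near 3 among 2N nuclei, and 27 of 94 rows have more than 1 level, 18 of them in the 2N+ gate.

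Partial gains and losses were found in few nuclei. A partial change was a run of bins at least 0.5 copies above or below the median of the chromosome in that nucleus. There were 20 such runs in 11 of 94 nuclei, 9 gains and 11 losses. They lay in 8 of 35 nuclei (2N+), 1 of 12 (4N) and 2 of 47 (2N). The 2N nuclei had 0 gains and 2 losses. Runs covered 4 to 152 bins, with a median of 7.5 bins and 4.09 Mb. Only 5 of the 20 had a mean level within 0.2 of a whole number.

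The share of bins in such changes was also compared with the whole genome. Bins above the median by 0.5 copies or more made up 2.45% of chromosome 3 in 2N+ nuclei, 0.379% in 4N nuclei and 0% in 2N nuclei, against 1.97%, 3.72% and 3.12% over chromosomes 1 to X. Bins below it made up 0.399%, 1.08% and 0.138% of chromosome 3 in these gates, against 2.96%, 4.18% and 3.16%. Of the 264 high bins in 2N+ nuclei, nucleus 32 gave 152.

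Nucleus 32 of the 2N+ gate had the most extensive partial gain. From 1 to 56138114 it had 4.08 copies, and from 81965145 to the end of the chromosome 3.10. Between them stood blocks of 5.46 copies from 56138115 to 62344703, 3.92 to 69090642, 4.84 to 75859766 and 7.02 from 75859767 to 81965144. The median over bins calls this chromosome trisomic, on 156 of 308 bins, although its proximal 152 bins were tetrasomic or higher. The nucleus had 17 breakpoints in the genome and a residual of 0.0720, both below the medians of its gate, which were 20 and 0.0770.

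Nuclei 24, 22 and 31 of the 2N+ gate had more than 1 change each. In nucleus 24 a block of 2.31 copies from 51865273 to 56138114 was followed by one of 3.88 copies from 56138115 to 65632749, on a chromosome of 3.07. In nucleus 22 losses to 2.06 copies from 52326414 to 55624427 and to 2.30 copies from 152599249 to 157909406 stood on a median of 3.06. In nucleus 31, with a median of 3.78, gains reached 5.28 copies from 56648611 to 58669788 and 4.93 from 131248772 to 133194451. A broad block of 4.29 copies covered 70 bins from 87212426 to 122977012. It lay 0.509 copies above the median, barely past the mark of 0.5. These nuclei had 87, 91 and 72 breakpoints in the genome. Nucleus 25, with 32 breakpoints, had 1 gain, to 3.76 copies from 87686427 to 96616709 on a median of 3.10.

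Nuclei 4, 11 and 20 of the 2N+ gate had 1 short loss each. Nucleus 4 had 3.39 copies from 155954141 to the end, nucleus 11 had 3.23 copies from 150657416 to 152599248, and nucleus 20 had 3.33 copies from 134796352 to 137223690, each on a tetrasomic chromosome. These runs covered 7, 4 and 5 bins.

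Nucleus 9 of the 4N gate had 10 levels on chromosome 3, more than any other nucleus, and 112 breakpoints in the genome. On a median of 3.87 copies it had gains to 5.56 copies from 1 to 5842289 and to 5.88 copies from 11826091 to 14583553. It had losses to 3.03 copies from 41957673 to 49927524, to 3.28 from 110858907 to 119644069 and to 2.65 from 153519503 to 157418733. The last 4 bins stood at 4.43 copies.

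Both partial changes of the 2N gate were losses of trisomic chromosomes in the distal part. Nucleus 46 had 2.44 copies from 135763530 to 143499927, and nucleus 6 had 2.29 copies from 139176576 to 141169070. These intervals overlap. The loss of nucleus 46 was reached in steps that were each below 0.5 copies, so this nucleus counts among those without such a step. The other 45 nuclei of the gate had no run of bins 0.5 copies or more from their median.

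**Figure D4:**
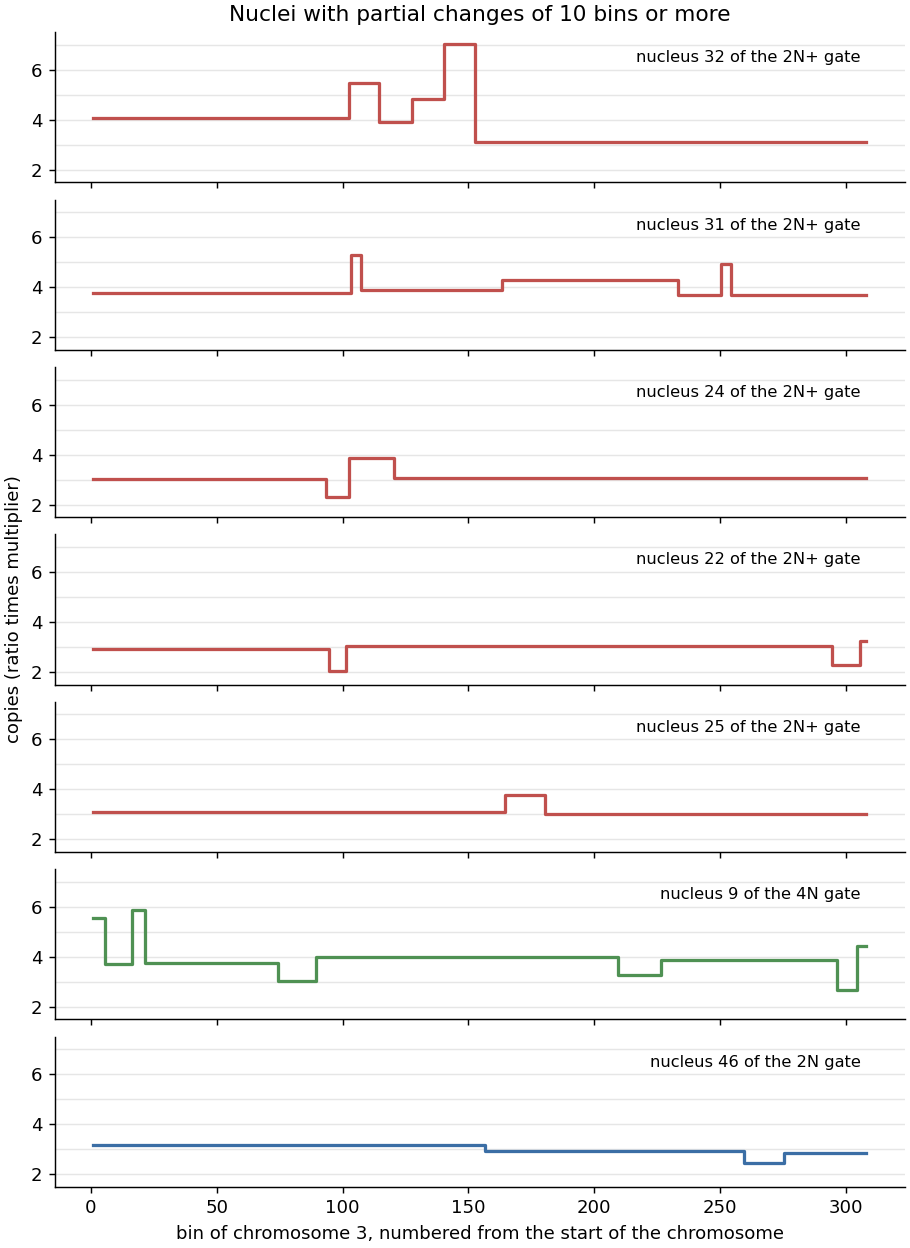
Copies (vertical axes) in each bin of chromosome 3 (horizontal axis, bins numbered from the start) in the 7 nuclei with a partial change of 10 bins or more: 2N+ numbers 32, 31, 24, 22 and 25, 4N number 9 and 2N number 46. Nucleus 32 of the 2N+ gate reaches 7.02 copies near the middle and 3.10 beyond it.

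Most runs lay in a few nuclei with many breakpoints, although most nuclei with runs were not among these. Of the 6 nuclei with more than 60 breakpoints in the genome, 4 had partial changes of chromosome 3, and these held 13 of the 20 runs. The other 88 nuclei held 7 runs in 7 nuclei. Breakpoints in the genome include those on chromosome 3, so nuclei chosen for many breakpoints are prone to hold more runs on any chromosome. Runs of other chromosomes were not counted in this way, so these counts show nothing particular to chromosome 3. Without the 6 nuclei the 2N+ gate had 5 runs and the 4N gate 0. The part of amplification or library quality in these runs was not tested.

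The bulk libraries were compared with the nuclei of their own gate. Chromosome 3 was 1 level over all 308 bins in both bulk libraries. Relative to chromosome 4 it stood at 1.88 in the 2N+ bulk library, against a mean of 1.92 ± 0.159 in 2N+ nuclei (SD, n = 35). In the 2N bulk library it stood at 1.56, against a mean of 1.55 ± 0.143 in 2N nuclei (SD, n = 47). The differences between bulk library and mean of nuclei were -0.0422 (2N+) and 0.00553 (2N). The SDs are those of single nuclei and hold both states, so they do not measure the error of a bulk value. With chromosome 4 taken as 2 copies, the bulk libraries had 3.76 (2N+) and 3.12 (2N) copies on average, against 3.85 and 3.11 in the nuclei.

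A bulk level between 3 and 4 can be read as a mixture. If each nucleus in the bulk had either 3 or 4 copies, the tetrasomic share would be 76.2% in the 2N+ bulk library, against 85.7% of 2N+ nuclei at 4 copies or more (69.7 to 95.2). In the 2N bulk library it would be 11.9%, against 10.6% of 2N nuclei (3.55 to 23.1). The bulk shares take ratios to chromosome 4 of exactly 1.5 and 2. Trisomic and tetrasomic nuclei averaged 1.57 and 1.97 (2N+) and 1.51 and 1.95 (2N). The shares of nuclei count rounded states, and that of the 2N+ gate includes nucleus 30 at 4.82 copies, so the measures are not alike. Both bulk values lie inside the interval of the nuclei. They carry no error of their own, since there is 1 bulk library per gate.

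Bulk ratios also lay farther from whole copies than those of any nucleus of their gate. The residual was 0.181 in the 2N+ bulk library, against 0.0531 to 0.164 in 2N+ nuclei. It was 0.175 in the 2N bulk library, against 0.0470 to 0.160 in 2N nuclei. Along chromosome 3 the 2N+ bulk library was below the mean of nuclei in every bin, with differences of -0.0876 to -0.00438 in ratio, and the 2N bulk library was above it in every bin, with differences of 0.000655 to 0.0276. Over chromosomes 1 to X, ordered from the smallest to the largest distance between bulk and nuclei, chromosome 3 ranked 17 of 20 among 2N+ nuclei and 9 of 20 among 2N nuclei.

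**Figure D5:**
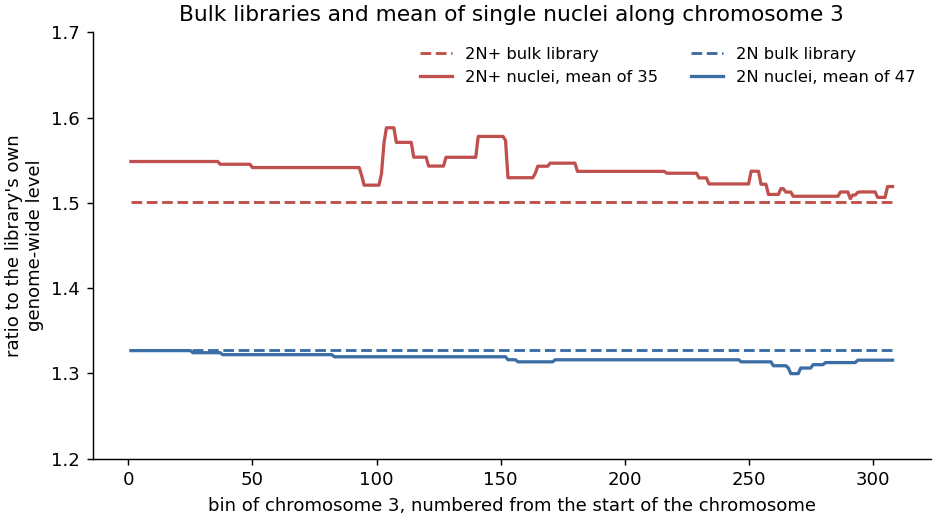
Ratio relative to the mean of the library (vertical axis) in each bin of chromosome 3 (horizontal axis, bins numbered from the start); dashed lines are the bulk libraries, solid lines the means over 35 2N+ and 47 2N nuclei. The bulk libraries are flat at 1.5 (2N+) and 1.33 (2N), and the 2N+ mean carries the blocks of single nuclei with partial gains.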

How the data were processed

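Single nuclei and bulk samples were sequenced after whole-genome amplification with the SeqXE kit, per the labels' protocols. Bowtie 1.0 and mm9 were used, per the submitters' processing notes. How bins were built, corrected for GC content or duplicates, and segmented is not given in the sources read. As deposited, values are linear ratios and not counts, with library means from 0.994 to 1.09, so depth and bin noise are unknown. Rows mix tabs and spaces, so every line was read as 99 fields separated by either. Positions count from 1, and a bin ends where the next begins.

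Multipliers were searched from 1.5 to 6 in steps of 0.05 over all autosomal bins. Functions were tested on simulated nuclei, with noise below the residuals of most nuclei and without a doubled genome. That test therefore does not cover the scales of the 4N gate. The design named a division by the autosomal median, but the deposited scale was used, with that division as an alternative. Chromosomes other than 3 are named where they set the scale or neighbour it in an order. Named nuclei are minority states of 6 or fewer, those with a partial change of 10 bins or more, the 5 farthest from a whole number, and the extremes of a gate. Shorter partial changes in nuclei 4, 11 and 20 (2N+) and 6 (2N) were added to these with their values known. The chromosome, gene list and measures were chosen with earlier results of these data known. Calculations ran in Python 3.11.15 with pandas 2.3.3, numpy 2.4.6 and scipy 1.17.1, and plots in matplotlib 3.10.9.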

Additional observations from a re-analysis of the deposited data

How the results depend on the processing

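Of 108 alternative values for 17 results, 94 stayed within the counting interval, the SD of nuclei or 1.5 times the count, and 14 moved farther. The SD of nuclei holds nuclei of all states, so it is a wide limit for medians and bulk differences. The median of the 4N gate, 3.96 copies with an SD of 1.35, stayed within it at 3.19 with multipliers limited to 2.0 to 3.0. It also did so at 3.31 with chromosomes 4, 7, 9, 10 and 13 set at 2 copies. The shares of nuclei at 4 copies or more stayed within their intervals in the 2N+ and 2N gates under all 9 alternatives run on them. In the 4N gate this share was 66.7%. It was 33.3% with multipliers limited to 2.0 to 3.0 and also 33.3% with chromosomes 4, 7, 9, 10 and 13 set at 2 copies, by construction for nuclei with larger multipliers. Leaving out nuclei of residual above 0.15 lowered the partial changes of the 2N+ gate from 12 to 7. Leaving out nuclei with more than 60 breakpoints lowered them to 5, and those of the 4N gate from 6 to 0, so that 100% of the remaining 9 nuclei of the 4N gate had no step. Steps from 0.75 copies gave 7 changes in 2N+ nuclei and 1 in 2N nuclei. Steps from 0.25 copies gave 8 in the 2N gate and 83% of its nuclei without a step. Whole copies within 0.1 were found in 82.9% of 2N+ and 91.5% of 2N nuclei, and within 0.3 in 100% of 2N+ and 100% of 4N nuclei. The values show differences, and the cause was not tested where none is named. Ratios carry no depth, so changes shorter than the submitters' segments are not detectable. No paired analysis was possible because replicate numbers are mere names of nuclei here, and no model was fitted.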

Other observations

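The measures given here were chosen after seeing the data. Levels at least 0.2 copies from the median of the chromosome in a nucleus were counted per bin, with no upper limit, so the partial changes of the report are among them. They were counted on chromosome 3 only, so how common such stretches are over the genome is unknown. A level that low was found in a median of 1 nucleus per bin, and in 7 of 94 nuclei from 139668240 to 141169070. From 138653568 to 148766126, 21 bins in a row were low in 5 to 7 nuclei. The 7 were 2N+ nuclei 5, 10 and 17 and 2N nuclei 6, 16, 29 and 46. Nuclei 5, 10, 17, 16 and 29 were tetrasomic and had 3.77, 3.60, 3.66, 3.67 and 3.73 copies there, between whole numbers. A level that high was found in a median of 1 nucleus per bin, and in 5 to 7 nuclei over the first 36 bins, from 1 to 23024005. Those were 2N+ nuclei 8, 30 and 32, 4N nucleus 9 and 2N nuclei 3, 8 and 38. In nuclei 3 and 38 of the 2N gate the first level was 3.26 and 3.27 copies, on a rest of 2.98 and 3.01.

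Borders of levels also lay close together in a few places, again counted on chromosome 3 only, with no share over the genome beside them. Steps of any size were found at 55 positions, 6 of them in more than 1 nucleus and none in more than 3. Position 121128907 was shared by 2N+ nuclei 2, 6 and 34, with 20, 26 and 20 breakpoints in the genome. The steps there were small, from 3.07 to 2.92, 4.03 to 3.86 and 3.98 to 3.81 copies. Position 152599249 was shared by 2N+ nuclei 6, 11 and 22, with 26, 36 and 91 breakpoints. Counted over 5 neighbouring borders, the median number of nuclei was 1 and the highest 6. The highest count was in the distal part, where borders from 150657416 to 152599249 belonged to 2N+ nuclei 5, 6, 11, 17 and 22 and 2N nucleus 16. Borders from 54698199 to 56648611 belonged to nuclei 22, 24, 31 and 32 of the 2N+ gate, and nuclei 24 and 32 shared the position 56138115. Nuclei 22, 24 and 31 had more than 60 breakpoints in the genome, and without them only nucleus 32 has a border there.

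Copies of the other chromosomes were set out by the state of chromosome 3 within a gate. In 2N+ nuclei the difference, tetrasomic minus trisomic, was 0.633 copies for chromosome 2, 0.583 for 15, 0.550 for 18 and 0.486 for 1. It was 0.0212 for 19 and 0.00655 for 10, and lowest for 6 at -0.196. In 2N nuclei the difference was 0.533 for chromosome 15, 0.518 for 16, 0.268 for 18 and 0.267 for 2. It was -0.0534 for 19 and 0.0129 for 10, and lowest for 12 at -0.115. Chromosome 15 had a mean of 2.99 ± 0.152 copies in the 29 tetrasomic 2N+ nuclei and 2.4 ± 0.498 in the 5 trisomic ones (SD over nuclei). Among 2N nuclei it had 2.75 ± 0.392 copies in the 5 tetrasomic and 2.22 ± 0.359 in the 42 trisomic ones. The minority groups hold 5 nuclei each, and the differences were not tested. The trisomic 2N+ nuclei include numbers 22 and 24, with 91 and 87 breakpoints. They also include number 32, which was tetrasomic or higher in its proximal 152 bins.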
